A study of Parasteatoda tepidariorum with 12 samples.

Results

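The data followed whole embryos of a spider, *Parasteatoda tepidariorum* (isolate Osaka), from stage 2 to stage 3 after knockdown of the GATA-like transcription factor gene *fuchi*. The members are the 4 libraries labelled *fuchi* pRNAi at these stages, of 12 libraries in the series, and all gene models of the count table were followed through them. Each library holds poly(A) RNA of whole embryos, 50 to 100 pooled, kept at 25 °C. Stage 2 embryos were taken 11 h after egg laying (AEL) and stage 3 embryos 20 h AEL. The knockdown was parental: mated females received 4 injections of *fuchi* double-stranded RNA, 1 to 2 µl at 2 µg/µl and 2 to 3 days apart, and their eggs were taken 19 days (female 1) or 18 days (female 2) after the first injection. Both stages came from eggs of the same day of the same female. Whether they shared an egg sac is not stated. The untreated libraries at both stages, 4 in number, serve as reference. They came from the same 2 females, from eggs laid 2 days before the first injection, so that treatment cannot be told apart from the age of the female or from the injection itself, and no library with an unrelated double-stranded RNA was among the 12. With 2 females per group, the spread within a group is that between 2 pools of embryos. Standard errors and adjusted p-values of the fit reported come from all 12 libraries in 6 groups together, so the other groups inform them too. Intervals of count ratios and limits on folds cover counting error only and hold no spread between pools.

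At stage 2 the spider egg is a blastoderm of few, evenly spread cells that lives largely on RNA loaded by the mother. By stage 3 the embryo's own genes are active and cells gather on one side of the egg to form the germ disc, the sheet from which the body develops. In animals in general this step combines removal of maternal transcripts with the start of zygotic transcription. GATA factors are zinc finger proteins that bind the motif GATA in DNA, and in many animals they act in endoderm.

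The double-stranded RNA was made from a fragment of *fuchi* (gene model g26874, scaffold 177, 310446 to 328722, plus strand, assembly Ptep_1.0). The study's primer pair for that fragment is shown because it defines what was knocked down, with the 22 bases that match the gene in capitals and the tail carrying an EcoRI site in lower case, each 5′ to 3′.
forward primer: ggaattcGACATGTTCTCACCTATTTCCG
reverse primer: ggaattcTGTAATTGCCTTAAGTCCGATG

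*fuchi* RNA was measured first, as a check of the labels. Levels are in CPM, read counts scaled to a library total of 1e+06 after correction of that total by a TMM factor. In the knockdown embryos it stood at 13.3 and 5.87 CPM at stage 2 and at 55.4 and 52.1 CPM at stage 3, in females 1 and 2. The untreated embryos of the same females had 52.8 and 38.9 CPM, then 227 and 229 CPM. Each knockdown library was below both untreated libraries of its stage, and yet *fuchi* RNA rose between the stages in both females of the knockdown (log2 fold change 2.47 ± 0.33 SE, edgeR adjusted p = 8.84e-05), where the untreated value was 2.31. *catA*, which encodes the adhesion protein alpha-catenin and served the study as a reference gene, went from 367 and 400 CPM to 163 and 151 CPM in the knockdown (-1.29 ± 0.25, edgeR adjusted p = 0.00124). That fall missed the threshold when the stage 3 library of female 2 was left out.

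Of 27990 gene models, 14498 had at least 1 CPM in at least 1 of the 12 libraries and were tested. Between stage 2 and stage 3 of the knockdown, 1847 gene models rose (12.7% of those tested) and 1832 fell (12.6%) at an edgeR adjusted p under 0.01. For each of these calls both stage 3 values lay on the same side of both stage 2 values, as they did for 36.8% (higher) and 32.4% (lower) of all gene models tested. The median log2 fold change over all tested was 0.08, that of the called rises 2.14 and that of the called falls -2.10. Rises of at least 16-fold numbered 580 (31.4% of the rises), against 187 falls of that size (10.2%). The count of calls leaned on each library: without 1 of them the rises numbered 1042 (stage 2, female 1), 972 (stage 2, female 2), 1116 (stage 3, female 1) and 1442 (stage 3, female 2), and the falls 1303, 1201, 1149 and 1358 in the same order. A test for changes beyond 2-fold called 771 rises and 835 falls.

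**Figure D1:**
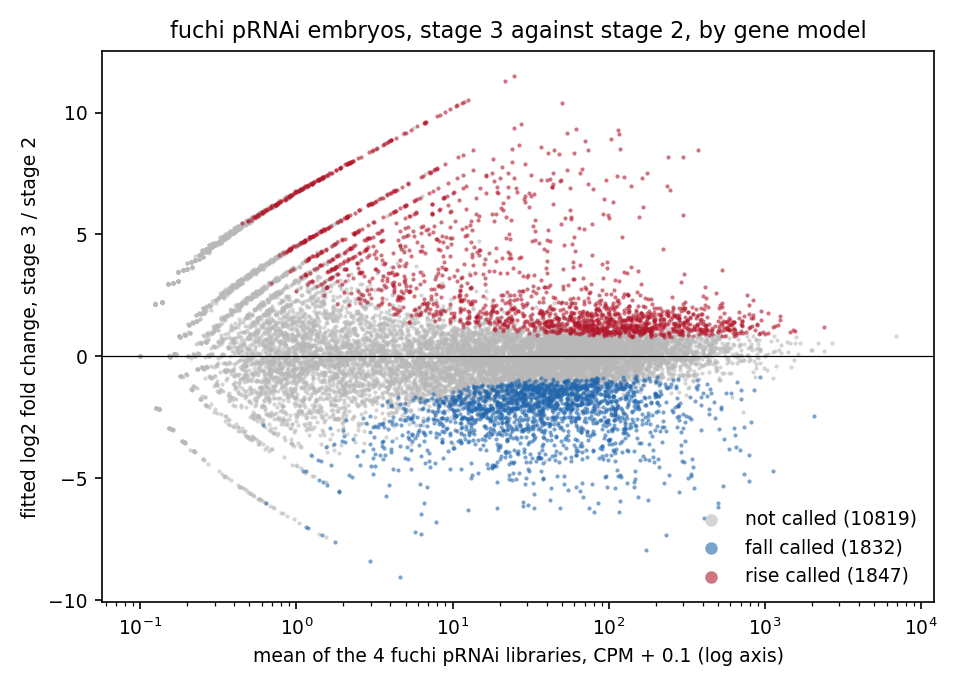
Fitted log2 fold change of stage 3 over stage 2 in the *fuchi* pRNAi embryos (vertical) against the mean CPM of the 4 libraries plus 0.1 (horizontal, log axis), 1 point per gene model tested. Called rises (1847, red) reach further from 0 than called falls (1832, blue), and uncalled gene models are grey.

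The genes that rose took a growing part of the RNA. As a description of genes chosen by this same contrast, the called rises held 12.01% and 11.6% of the counts at stage 2 and 33.25% and 29.3% at stage 3. Those that fell held 22.9% and 25.6% at stage 2 and 4.88% and 5.32% at stage 3. The median gene that rose had a mean of 9.09 CPM at stage 2 and 56.4 CPM at stage 3, and the median gene that fell 59.1 CPM and then 13.4 CPM. Poly(A) RNA was measured, so a change in abundance and a change in poly(A) tail length cannot be told apart, and in whole embryos neither can fewer cells of a type and less RNA per cell.

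Among described genes, the rise with the smallest p belonged to g1840, a pleckstrin homology domain gene of family O, with 4.09 and 4.49 CPM at stage 2, then 507 and 474 CPM at stage 3 (log2 fold change 6.83 ± 0.32, edgeR adjusted p = 1.48e-07). A protein lifeguard 2-like gene (g15222), of a family of membrane proteins that hold back cell death in mammals, went from 2.15 and 1.87 to 399 and 253 CPM. The zinc finger gene g12202, described as ZIC 4-like and so related to *odd-paired* of *Drosophila*, went from 2.91 and 1.12 to 598 and 586 CPM (8.16 ± 0.47, edgeR adjusted p = 2.58e-07). In all 3 genes both stage 3 libraries were far above stage 2. They were close to each other in g1840 and g12202, while in g15222 female 1 was well above female 2. Kinesin heavy chain-like genes, motors that walk along microtubules, stood next to each other on scaffold 626 and rose together: g5178 from 4.09 and 3.25 to 529 and 406 CPM, and g5179 from 3.12 and 0.999 to 697 and 787 CPM. They lie in a run of 6 neighbouring gene models, g5177 to g5182, all called as rises, which starts with an inner centromere protein A-like gene (2.58 and 0.624 CPM, then 543 and 410 CPM) and ends with a pair of bystin-like genes. Near-identical neighbours can share or split reads, so the level of each copy is uncertain. A further kinesin heavy chain-like gene at the edge of scaffold 1264 (g11117) had 0.43 and 0.374 CPM at stage 2, against 142 and 323 CPM at stage 3.

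The other described rises of smallest p were a golgin of the Golgi apparatus (g4847, 3.34 and 3.99 to 153 and 119 CPM), the ribosome assembly factor esf2 (g7670, 0.43 and 0.749 to 33.7 and 35.7 CPM), a meteorin-like secreted protein (g8000, 0.43 and 0.499 to 33.5 and 21.7 CPM), a gene described as cell wall protein gp1-like (g9967, 0.323 and 0.624 to 44.8 and 57.5 CPM), a general transcription factor II-I repeat gene (g15950, 0.753 and 0.499 to 62.6 and 51.2 CPM), and the receptors frizzled-5-like and Notch that are described with the signals. Their log2 fold changes ran from 5.21 (g4847) to 7.52 (g4009, frizzled-5-like).

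The 12 described falls of smallest p included several enzymes and carriers. Stearoyl-CoA desaturase 5-like g10379, which puts a double bond into saturated fatty acids, had 398 and 526 CPM at stage 2, then 2.29 and 3.63 CPM at stage 3 (-7.31 ± 0.37, edgeR adjusted p = 2.29e-07). A putative fatty acyl-CoA reductase (g21224), which makes fatty alcohols, went from 174 and 283 to 2.29 and 3.33 CPM. A diacylglycerol lipase beta (g9460) went from 185 and 203 to 10.8 and 12.9 CPM. For each of the 3, the stage 3 libraries lay within a few CPM of each other and far below stage 2. The facilitated glucose transporter gene g25893 went from 361 and 574 to 14.9 and 17.6 CPM (-4.85 ± 0.31, edgeR adjusted p = 4.17e-07). A pair of sodium-coupled neutral amino acid transporter genes on different scaffolds fell alike, g18058 from 127 and 128 to 1.89 and 3.79 CPM and g8128 from 177 and 192 to 6.18 and 6.21 CPM.

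A regulator of maternal RNA was among the steepest falls: bicaudal C homolog g11292, an RNA-binding protein needed for egg polarity in *Drosophila*, had 741 and 1244 CPM at stage 2, against 9.67 and 18.0 CPM at stage 3 (-6.18 ± 0.38, edgeR adjusted p = 3.65e-07). The zinc finger gene described as EGR2 (g12565) went from 457 and 645 to 9.77 and 14.1 CPM. A proclotting enzyme (g15441), a serine protease of the horseshoe crab clotting family, went from 546 and 759 to 16.8 and 29.1 CPM, and a putative ferric-chelate reductase (g9095) from 453 and 793 to 20.2 and 19.7 CPM. In these 4 genes the females differed at stage 2, female 2 being higher, by less than 2-fold. The remaining falls of this set, fukutin (g11383), a Golgi protein of glycosylation, and actin-binding LIM protein 3-like (g27579), had log2 fold changes of -5.25 and -4.06.

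Many of the calls named no known product. Without a description, or described as uncharacterized, were 33.8% of the rises and 20.1% of the falls, against 27.8% of all gene models tested. Among the 100 rises of smallest p there were 62 such genes, and among the 100 falls 25. The smallest p of the whole contrast belonged to one of them, g17646 on scaffold 2610, with 0.43 and 0.25 CPM at stage 2, then 207 and 252 CPM at stage 3 (9.30 ± 0.40, edgeR adjusted p = 1.06e-07). Its neighbours in this order, g13888, g2785, g16447, g1712 and g18851, had log2 fold changes of 6.60 to 8.36. Falls without a described product were led by g15723 (87.1 and 105 to 1.20 and 1.36 CPM), g27534 (311 and 377 to 0.698 and 2.27 CPM), g25552 (948 and 1145 to 18.9 and 33.6 CPM) and g2014 (121 and 119 to 2.89 and 3.03 CPM).

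Some gene models had no read at all in 1 stage. At 0 counts in both stage 2 libraries and at 20 or more counts in both stage 3 libraries were 50 gene models, all called, of which 38 had no described product. Set against 3 counts over both stage 2 libraries, they were at least 14.9-fold to 292-fold higher at stage 3, a limit that covers counting error only. The largest was uncharacterized g2546, with 55.9 and 42.5 CPM at stage 3, at least 292-fold higher. g18292 followed with 15.6 and 70.0 CPM, the females differing widely, then myosin-9-like g10399 with 26.8 and 22.9 CPM, at least 146-fold higher. Next came g11118 (27.2 and 19.4 CPM) and g14985 (30.7 and 10.9 CPM), both without a described product. Neighbouring speckle-type POZ protein A-like genes (g1963 and g1964), named here after their values were seen, also belonged to the 50. Of the 50, 17 were at 0 in both untreated stage 2 libraries too, and the highest untreated stage 2 count was 11. The reverse, 20 or more counts at stage 2 and 0 at stage 3 in both females, held for 3 gene models. These were a Skeletor-like gene (g23511, 7.42 and 10.6 CPM at stage 2, at least 49.4-fold lower at stage 3), zinc transporter 2-like g13774 (4.09 and 7.37 CPM, at least 31.1-fold lower) and transmembrane protein 205 (g16850, 3.87 and 2.75 CPM, at least 18.6-fold lower). The edgeR call of g16850 was lost without the stage 2 library of female 1 and without either stage 3 library.

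Each female gave the change on its own. Of 1087 gene models that were at least 4-fold higher at stage 3 in female 1, 961 (88.4%) were at least 2-fold higher in female 2 and 4 were at least 2-fold lower, with a median log2 change of 2.39 in female 2. At least 2-fold higher in female 2 were 21.1% of all gene models tested. Of 1115 that were at least 4-fold lower in female 1, 1011 (90.7%) were at least 2-fold lower in female 2, against 19.7% of all, and 1 was at least 2-fold higher. Chosen in female 2 and read in female 1, the shares were 89.1% of 1008 that rose and 92.0% of 1116 that fell, against 20.7% and 21.3% of all gene models tested.

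Of the 8 GATA family genes, 3 rose and 1 fell, where 12.7% of all gene models tested rose and 12.6% fell. The 1 fall among 8 was thus near the share of falls over all gene models. Of the 4 called genes, *fuchi* itself was the only one whose call held without each library in turn. *Pt-GATA1* (g20514) had 23.0 and 27.7 CPM at stage 2, against 3.09 and 6.66 CPM at stage 3 (-2.40 ± 0.64, edgeR adjusted p = 0.00956), and its adjusted p reached 0.0856 without the stage 3 library of female 1. *Pt-GATA5* (g8337) had 0.43 and 0 CPM and then 2.69 and 5.15 CPM (3.99 ± 1.06, edgeR adjusted p = 0.00976, up to 0.0634 without 1 library). *Pt-GATA2* (g1834) had no count at stage 2 and 0.598 and 1.97 CPM at stage 3, at least 6.59-fold higher (edgeR adjusted p = 0.00905, up to 0.0522 without 1 library). *Pt-GATA3*, *Pt-GATA4*, *Pt-GATAL1* and *Pt-GATAL2b* were below 2 CPM in all 4 libraries and were not called. The homologs of u-shaped, a partner of GATA factors in *Drosophila*, were not called either: g14866 had 1.61 and 3.75 CPM at stage 2, then 13.1 and 5.30 CPM at stage 3, and g16893 was below 0.5 CPM throughout.

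The screen of the study had ranked candidate genes by RNA of cells isolated from regions of the forming germ disc. Stained whole embryos of the study showed a localised signal for only some candidates, and for none of the periphery group. Of 10 genes high at its centre, 4 rose and 1 fell in the knockdown (median log2 fold change 3.46, or 2.22 with genes at 0 set to their bound), against 0.08 over all tested. The risers were *Pt-Ets4*, *Pt-twi*, which is described with the transcription factors, the homeobox gene g16467, described as orthopedia-like (0 and 0.25 to 6.08 and 2.73 CPM), and the uncharacterized g5118 (0.108 and 0.125 to 2.09 and 3.03 CPM). *Pt-Ets4* (g4238), an ETS transcription factor, had 4.20 and 1.12 CPM at stage 2, against 72.0 and 65.3 CPM at stage 3 (4.65 ± 0.65, edgeR adjusted p = 0.000133). The fall was g15167, EF-hand domain-containing protein D2, from 55.4 and 101 to 4.19 and 4.39 CPM. The g5118 call was lost without either stage 2 library. Of 5 candidates for the periphery 1 rose, macrophage mannose receptor 1 (g1424, 0.215 and 0.374 to 6.48 and 3.94 CPM). That call was lost without either stage 2 library or the stage 3 library of female 1. Of 4 candidates for both places *fuchi* rose and zinc finger protein 271-like (g4752) fell. The g4752 call, with an edgeR adjusted p of 0.00885, was lost without 3 of the 4 libraries. The undescribed g18041 (76.5 and 24.1 to 20.2 and 11.5 CPM) was not called (edgeR adjusted p = 0.0188) and was called as a fall with the replicate block (0.000853), with DESeq2, with no filter on low counts and without the stage 2 library of female 2 (edgeR adjusted p = 0.00264).

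Signalling molecules moved in both directions. Hedgehog is a secreted protein bound by the receptor Patched, Delta and Jagged proteins are membrane ligands of Notch, FGF8 is a growth factor, Sog binds BMP proteins such as Dpp and keeps them from their receptors, and Frizzled receives Wnt. Of 47 ligand and modulator genes tested, 8 rose and 3 fell (with the replicate block 14 and 3), with a median log2 fold change of 0.96. Those shares were 17.0% and 6.4%, against 12.7% and 12.6% of all gene models tested. *Pt-hh* (g4322) had 0.753 and 0.374 CPM at stage 2, then 17.4 and 17.6 CPM at stage 3 (4.89 ± 0.49, edgeR adjusted p = 9.17e-06), where untreated embryos reached 74.1 and 82.3 CPM. *Pt-Delta* (g25248) went from 3.87 and 1.25 to 53.9 and 32.1 CPM (4.04 ± 0.42, edgeR adjusted p = 1.26e-05), against 170 and 175 CPM in untreated stage 3. For both genes the knockdown libraries rose and yet stayed below the untreated ones at stage 3. The difference of the log2 fold change from that of untreated embryos was -1.46 for *Pt-hh* and -0.64 for *Pt-Delta*, and neither was called.

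*Pt-sog* (g23966) ended above the reference: it rose from 0.646 and 0.624 to 69.9 and 123 CPM in the knockdown (7.21 ± 0.73, edgeR adjusted p = 1.03e-05), while untreated embryos had 0.403 and 0, then 7.39 and 18.9 CPM. The FGF8-like gene g5611 had 4.84 and 5.24 CPM at stage 2, against 88.4 and 62.1 CPM at stage 3 (3.90 ± 0.31, edgeR adjusted p = 2.05e-06), and 20.7 and 23.1, then 39.97 and 29.4 CPM in untreated embryos. These ligand genes were thus lower than the reference at stage 3 (*Pt-hh*, *Pt-Delta*) or higher (*Pt-sog*, g5611), in both females. For *Pt-sog* the difference of the log2 fold change from that of untreated embryos, 1.45, was not called. That of g5611 is given with the comparison of the courses. *Pt-dpp* (g16926), the BMP ligand, had 20.3 and 37.0 CPM and then 9.67 and 14.2 CPM and was not called (edgeR adjusted p = 0.0497). A second hedgehog-like gene, g16219, fell from 14.1 and 11.2 CPM to 0.199 and 0.151 CPM, the latter 2 and 1 counts, and the ratio of counts, 0.0141, had a 95% interval from 0.00289 to 0.0418 (edgeR adjusted p = 6.32e-05). A second delta-like gene, g12734, fell from 119 and 119 to 19.3 and 22.3 CPM. The third fall, g7593, encodes Mothers against decapentaplegic homolog 3, a transducer of TGF-beta signals and no ligand, which the word decapentaplegic had put into the list.

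Receptors were also mixed, with 5 rises (15.6%) and 2 falls (6.25%) among 32 tested, against 12.7% and 12.6% of all gene models tested. Frizzled-5-like g4009 went from 0.969 and 0.374 to 123 and 135 CPM (7.52 ± 0.42, edgeR adjusted p = 2.58e-07). Notch g21218 went from 4.63 and 2.37 to 157 and 149 CPM (5.43 ± 0.31, edgeR adjusted p = 2.58e-07). Patched-like g14374, which in other animals is both the Hedgehog receptor and a target of the pathway, went from 12.7 and 12.1 to 253 and 111 CPM (3.88 ± 0.37, edgeR adjusted p = 6.94e-06), with untreated values of 211 and 204 CPM at stage 3. In the last gene female 1 was well above female 2 at stage 3, and both stood far above stage 2. FGF receptor 3-like g26271 fell from 1491 and 1478 CPM to 26.5 and 156 CPM (-4.03 ± 0.61, edgeR adjusted p = 0.00024), the females differing at stage 3. BMP receptor type-1B-like g18429 went from 29.7 and 37.0 to 10.8 and 12.4 CPM, a call lost without the stage 2 library of female 2 or either stage 3 library.

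**Figure D2:**
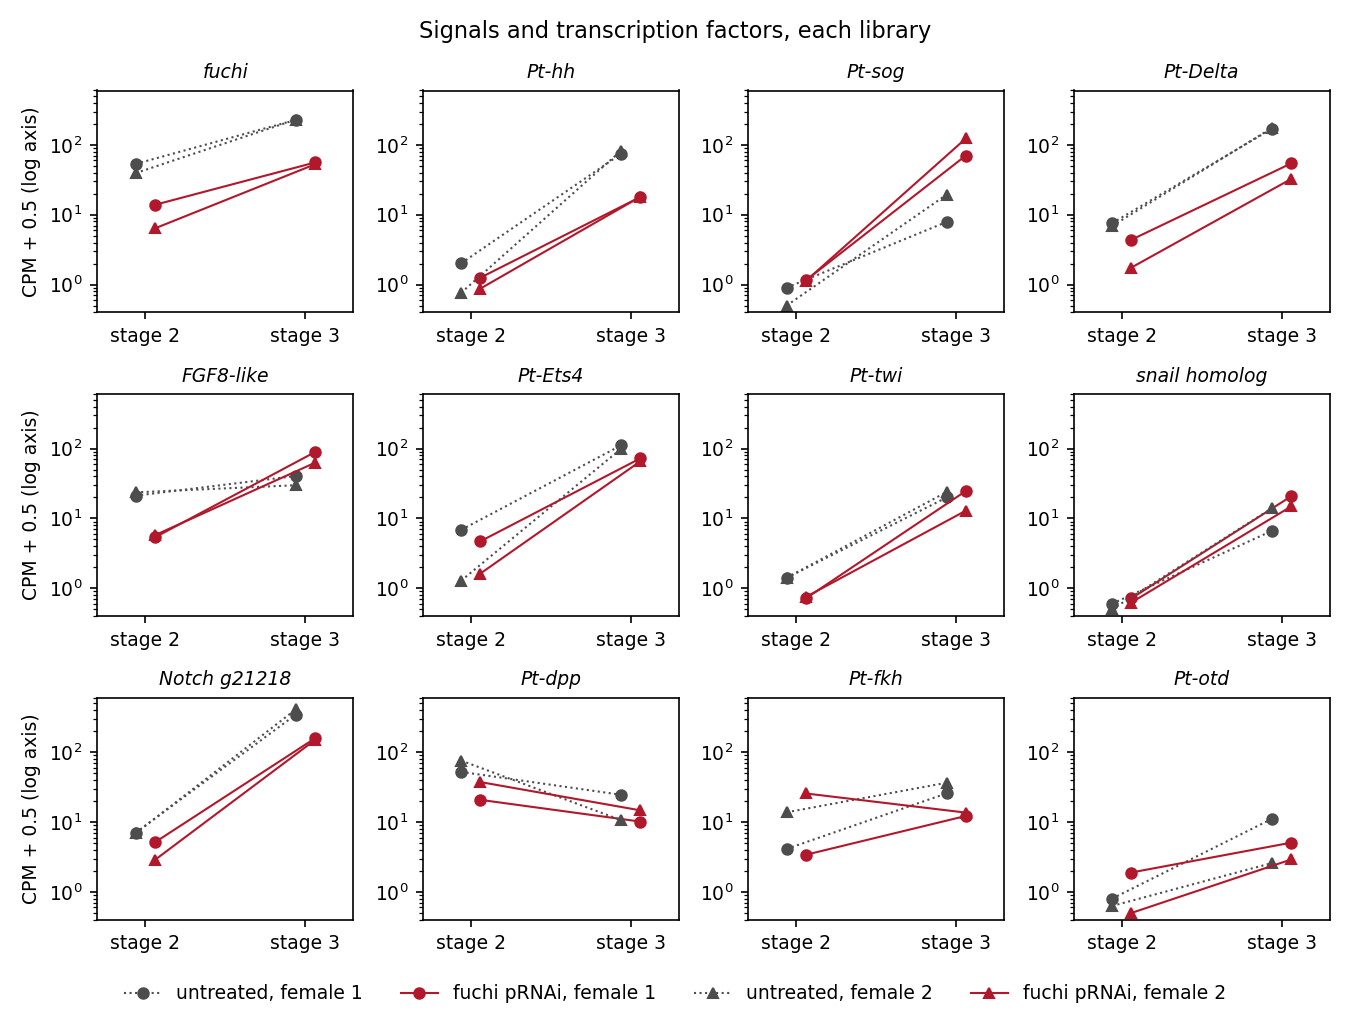
CPM plus 0.5 (log axis) of 12 genes at stage 2 and stage 3, 1 line per female (circles, female 1; triangles, female 2), *fuchi* pRNAi in red and untreated in dotted grey. *Pt-hh* and *Pt-Delta* end below the untreated lines, *Pt-sog* and the FGF8-like gene above them, and *Pt-fkh* shows the spread of the females at stage 2.

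Of 83 homeobox and paired box genes, which encode transcription factors, 11 rose (13.25%, near the 12.7% of all gene models tested) and 1 fell (1.205%, against 12.6%), and the median log2 fold change was 1.31 (0.85 with genes at 0 set to their bound). An engrailed-like gene (g15243), a segmentation factor in *Drosophila*, went from 0.323 and 0.25 to 13.4 and 7.87 CPM. A pair of Meis2 genes, partners of Hox proteins, went from 1.61 and 4.12 to 117 and 38.3 CPM (g13867) and from 0.215 and 1.75 to 36.1 and 13.9 CPM (g13868). In both Meis2 genes female 1 was the higher at stage 3 and female 2 at stage 2. Extradenticle (g20631), another Hox partner, went from 39.1 and 54.8 to 20.7 and 16.7 CPM, a fall whose call was lost without the stage 2 library of female 2 or either stage 3 library. The homeobox count was 5 without either stage 2 library, 7 without the stage 3 library of female 1, 12 without that of female 2, and 20 with the replicate block.

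Of 41 forkhead, SOX, T-box, basic helix-loop-helix (bHLH) and nuclear receptor genes, 11 rose and 3 fell. Those shares were 26.8% and 7.3%, against 12.7% and 12.6% of all gene models tested. Snail homolog g417, a repressor that acts in mesoderm in *Drosophila*, had 0.215 and 0.125 CPM at stage 2 (3 counts) and 20.3 and 14.4 CPM at stage 3, a ratio of counts of 104 with a 95% interval of 35.1 to 505. *Pt-twi* (g14287), the bHLH factor Twist, also a mesoderm factor, went from 0.215 and 0.25 to 24.2 and 12.4 CPM (6.21 ± 0.70, edgeR adjusted p = 2.39e-05). Atonal homolog 8-like g1851 went from 0 and 0.125 to 7.77 and 4.54 CPM. Forkhead genes K1 (g27823, 189 and 174 to 37.4 and 46.6 CPM) and J2-like (g13311, 17.9 and 19.7 to 1.79 and 2.73 CPM) fell. The third fall, forkhead box O-like g2974, lost its call without either stage 2 library or the stage 3 library of female 1.

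Of the 12 patterning genes named by the study 5 rose (41.7%) and none fell, against 12.7% and 12.6% of all gene models tested. The rises were *Pt-hh*, *Pt-Delta*, *Pt-sog*, *Pt-Ets4* and *Pt-twi*, and none of these calls was lost without any 1 library. The homeobox gene *Pt-otd* (g9172), a head gene, had 1.40 and 0 CPM at stage 2, then 4.58 and 2.42 CPM at stage 3, and was not called (edgeR adjusted p = 0.131), but was called with the replicate block (0.00552) and with no filter on low counts. *Pt-fkh* (g6985), a forkhead factor, had 2.91 and 25.2 CPM at stage 2, female 2 being far the higher, and 11.8 and 13.2 CPM at stage 3. *Pt-lab1* (g7954), a Hox gene, showed the same order of the females at stage 2, 31.9 and 127 CPM, then 137 and 80.4 CPM. The untreated stage 2 libraries had the females in that order too, with 3.63 and 13.3 CPM for *Pt-fkh* and 36.1 and 82.2 CPM for *Pt-lab1*. *Pt-BarH1*, *Pt-msx1* and *Pt-prd2* were not called, with log2 fold changes of 0.36, 1.31 and -0.42.

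Factors that act on maternal RNA fell and rose in equal number, 8 each among 49 tested. That is 16.3% each way, near the 12.7% rises and 12.6% falls over all gene models tested. Cytoplasmic polyadenylation element-binding protein 1-B-like g12413, which controls poly(A) tails of stored mRNA in frog and mouse oocytes, went from 1106 and 1211 to 102 and 148 CPM (-3.21 ± 0.25, edgeR adjusted p = 1.42e-06). CCR4-NOT subunit 4 (g18261), of a complex that shortens poly(A) tails, went from 271 and 261 to 31.3 and 35.3 CPM. The gld-2 homolog g17116, a cytoplasmic poly(A) polymerase named here after its values were seen, went from 370 and 397 to 54.6 and 49.7 CPM. Among the rises were pumilio homolog 3-like g5231 (58.8 and 53.6 to 205 and 185 CPM) and a pair of argonaute-2-like genes of the small RNA pathway, g11588 (100.3 and 99.99 to 299 and 291 CPM) and g8695 (246 and 268 to 572 and 542 CPM). Of the 8 rises 1 remained called without either stage 2 library and 3 without either stage 3 library, while 5 to 8 of the falls did.

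Among cell division genes, 2.0% of the DNA replication list and 12.7% of the mitosis list rose, against 12.7% of all gene models tested. Of 50 DNA replication genes 1 rose and 5 fell, where 12.6% of all gene models tested fell (without 1 library, 0 or 1 rises and 3 to 5 falls). The neighbouring DNA polymerase epsilon subunit 2-like models g4030 (20.7 and 22.3 to 2.99 and 2.42 CPM) and g4031 (15.1 and 15.2 to 1.89 and 2.27 CPM) fell, as did PSF2 of the GINS complex that opens DNA (g1105, 56.4 and 60.8 to 15.4 and 16.7 CPM). The rise, licensing factor mcm4-A (g27383), lost its call without 3 of the 4 libraries. Of 55 cyclin, mitotic kinase, centromere and kinetochore genes 7 rose and 4 fell (3 to 7 and 2 to 4 without 1 library). Centromere-associated protein E (g10461), a kinesin of the kinetochore, went from 4.52 and 9.36 to 88.6 and 57.5 CPM (3.40 ± 0.41, edgeR adjusted p = 3.85e-05). Kinetochore protein Spc25 (g17743) went from 197 and 168 to 15.2 and 18.9 CPM (-3.42 ± 0.38, edgeR adjusted p = 2.28e-05), and cyclin-dependent kinase 4 (g11377) from 151 and 106 to 30.7 and 32.6 CPM. Cyclin-D2 (g11246), whose protein activates that kinase, had 0.108 and 0 CPM at stage 2, against 5.28 and 1.82 CPM at stage 3.

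Histone genes are usually without a poly(A) tail, so poly(A) libraries see them in part. Of 18 tested, 5 rose (27.8%) and 1 fell (5.6%), against 12.7% and 12.6% of all gene models tested. Histone H2A g7601 went from 337 and 364 to 926 and 806 CPM (1.31 ± 0.24, edgeR adjusted p = 0.000833), linker histone H1B-like g12662 from 20.7 and 29.5 to 64.6 and 131.6 CPM, and variant H2A.V g18563 from 25.1 and 32.1 to 66.3 and 52.5 CPM. Without the stage 2 library of female 1 none of the 18 was called as a rise, and without any other library 2 were. Motor and tubulin genes divided evenly, 22 rises (15.9%) and 23 falls (16.7%) of 138 tested, near the 12.7% and 12.6% of all gene models tested. Falls included dynein 2 light intermediate chain (g2214, 40.03 and 34.0 to 3.59 and 2.27 CPM), non-muscle myosin heavy chain-like g15098 (331 and 353 to 69.2 and 75.6 CPM) and kinesin KIF3B (g18276, 41.0 and 35.6 to 4.98 and 6.51 CPM). Without 1 library that list held 10 to 15 rises and 11 to 14 falls.

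The lists with the largest shares of rises were those of ribosomes and splicing. Of 82 cytosolic ribosomal protein genes tested 68 rose (82.9%) and none fell, against 12.7% and 12.6% of all gene models tested. The median log2 fold change was 1.67, and 81 were above 0. The count was 51 to 65 without 1 library, and 28 in the test for changes beyond 2-fold. Ribosomal protein L23 (g15252) went from 15.5 and 25.6 to 269 and 247 CPM (3.65 ± 0.32, edgeR adjusted p = 3.81e-06), L9-like (g7878) from 48.7 and 56.3 to 670 and 433 CPM, and S15Aa (g1970) from 87.5 and 111 to 742 and 700 CPM. As a share of all counts, which depends on transcript length too, the list went from 1.07% and 1.25% to 3.74% and 3.104%. Untreated embryos went from 1.18% and 1.06% to 5.24% and 4.53%, with 76 rises and a median of 2.37. Of the 82 genes, 77 (93.9%) had a lower log2 change in the knockdown than in the reference, against 50.0% of all gene models tested, and the median difference was -0.80. That median ran from -0.63 to -0.88 over the alternatives that fitted both courses, which included leaving out each of their 8 libraries in turn. No single gene of the list passed the test of the difference. A lower log2 change in the knockdown was not particular to this list. It held for 87.5% of proteasome, 79.0% of respiratory chain, 77.8% of histone, 77.1% of mitochondrial ribosomal and 70.9% of splicing genes. Receptors (37.5%) and adhesion and matrix genes (35.4%) lay below the share of all gene models. The 82 genes were read from the same libraries and are not independent of each other.

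**Figure D3:**
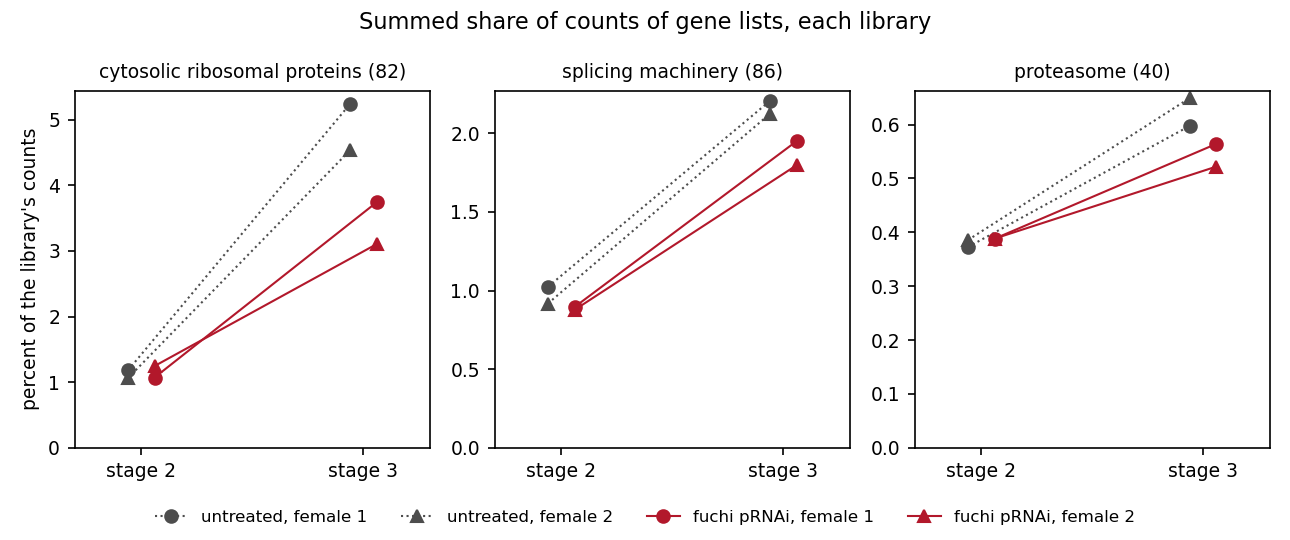
Summed share of a library's counts (percent, from 0) held by cytosolic ribosomal protein, splicing and proteasome genes at stage 2 and stage 3, 1 line per female, *fuchi* pRNAi in red and untreated in dotted grey. The ribosomal protein share ends at 3.74% and 3.104% in the knockdown and at 5.24% and 4.53% in untreated embryos.

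Of 86 splicing genes 47 rose (54.65%, against 12.7% of all gene models tested) and none fell (against 12.6%), with a median of 1.14. Splicing factor 3B subunit 2-like g4323 went from 68.8 and 58.9 to 245 and 286 CPM (2.06 ± 0.22, edgeR adjusted p = 1.55e-05), U1 small nuclear ribonucleoprotein A-like g19368 from 2.58 and 2.75 to 26.6 and 17.0 CPM, and serine/arginine-rich splicing factor 2 (g25080) from 141 and 155 to 518 and 634 CPM. The splicing count was 25 and 19 without the stage 2 library of female 1 or 2, 26 and 34 without the stage 3 library of female 1 or 2, and 12 in the test for changes beyond 2-fold. Of 76 genes of the RNA polymerase II machinery 13 rose and 5 fell (5 to 8 rises and 2 to 4 falls without 1 library). Those shares were 17.1% and 6.6%, against 12.7% and 12.6% of all gene models tested. The largest polymerase II subunit RPB1 (g25545) went from 188 and 173 to 552 and 670 CPM and Mediator subunit 22-like g17813 from 6.56 and 4.62 to 54.3 and 53.4 CPM. Mediator subunit 19 (g1099, 37.4 and 35.1 to 1.99 and 1.51 CPM) and transcription elongation factor B polypeptide 3 (g26705, 125 and 128 to 9.07 and 7.57 CPM) fell. Members of these complexes therefore moved in opposite directions.

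Organelle and protein turnover genes had shares of rises nearer the 12.7% of all gene models tested than ribosome and splicing genes did. In the lists that follow, rises ran from 5.7% (chaperones) to 22.5% (proteasome). Falls ran from 1.4% (mitochondrial ribosomal proteins) to 5.7% (chaperones), below the 12.6% of all gene models tested. Of 70 mitochondrial ribosomal protein genes 9 rose and 1 fell, with a median of 0.40 (2 to 5 rises without 1 library). Of 62 respiratory chain and ATP synthase genes 6 rose and 1 fell (0 or 1 rises without 1 library), although 51 were above 0, and female 2 was well above female 1 at both stages: the list held 0.526% and 1.63% of counts at stage 2 and 0.816% and 2.54% at stage 3. Of 40 proteasome genes 9 rose and 2 fell (1 to 5 rises without 1 library), among them SEM1 (g3422, 52.8 and 52.2 to 161 and 133 CPM). Of 35 chaperones 2 rose and 2 fell, the falls being Hsp70 genes, g11686 (367 and 399 to 33.0 and 90.1 CPM, lost without the stage 3 library of female 1) and g5255 (34.8 and 63.5 to 4.29 and 2.27 CPM, lost without that of female 2). Of 65 adhesion and matrix genes 7 rose and *catA* fell. Collagen IV chain g16481 (0.538 and 0.624 to 9.37 and 14.4 CPM) and laminin alpha g15376 (5.49 and 6.49 to 40.6 and 28.3 CPM), both of basement membranes, were among the rises, and 2 to 4 rises were called without 1 library and 12 with the replicate block. Of 35 lysosomal proteases and lipases 3 rose and 1 fell (1 to 3 rises without 1 library). The rise of cathepsin L1 (g398, 43.2 and 44.6 to 133 and 121 CPM) held without each library.

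**Figure D4:**
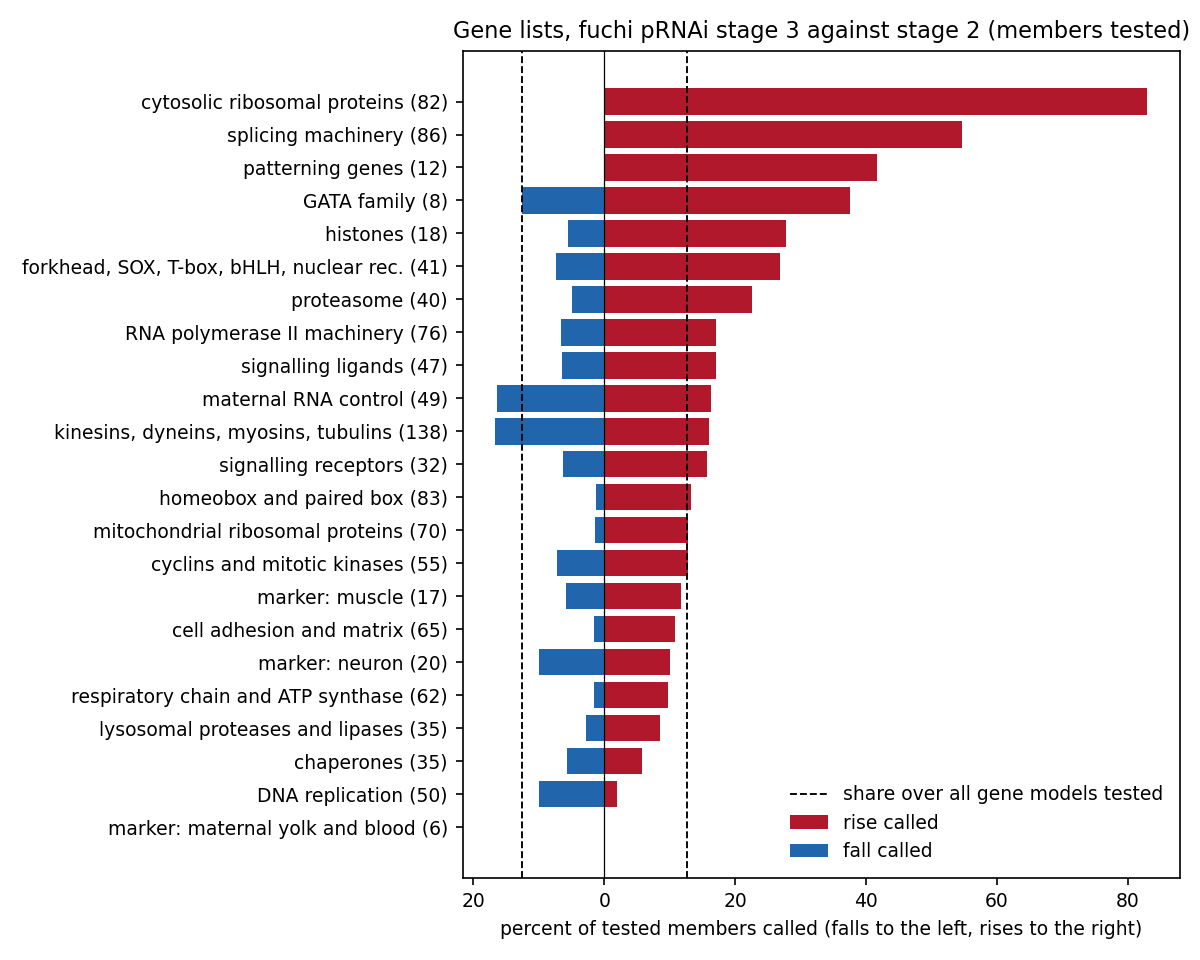
Percent of the tested members of each gene list called as rises (to the right, red) and falls (to the left, blue) between stage 2 and stage 3 of the *fuchi* pRNAi embryos, with the number tested in parentheses and dashed lines at the share over all gene models (12.7% and 12.6%). Cytosolic ribosomal proteins (68 of 82) and splicing genes (47 of 86) stand furthest to the right.

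Markers of differentiated cells were looked up because whole embryos mix all cells. Of 17 muscle genes tested 2 rose (11.8%) and 1 fell (5.9%), against 12.7% and 12.6% of all gene models tested. Their summed levels were 356 and 404 CPM at stage 2, then 151 and 192 CPM at stage 3. The rises were muscle myosin heavy chain models, g25846 (log2 fold change 3.09), whose call held without each library, and g27973 (3.65), whose call did not. The fall was tropomyosin g670 (286 and 318 to 96.0 and 94.8 CPM), a gene that non-muscle cells use too. Of 20 neuron genes 2 rose and 2 fell (1283 and 1147 CPM, then 818 and 1026 CPM), and the ELAV-like gene g23888 alone took 659 and 617 CPM at stage 2. The neuron rises were the ELAV-like models g11394 (log2 fold change 6.86) and g757 (1.14). The falls were g23888 (-1.62) and synaptotagmin-6-like g25733 (-1.605). Each of these neuron calls was lost without at least 1 library. Vitellogenin and hemocyanin genes, of maternal yolk and blood, gave no call among 6 tested and summed to 6.03 and 14.2 CPM at stage 2, against 5.38 and 25.4 CPM at stage 3. Female 2 was the higher of the 2 at both stages, also in the untreated embryos (9.58 and 11.6 CPM, then 8.62 and 26.3 CPM).

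The untreated course served as reference for the question whether the passage from stage 2 to stage 3 differed after the knockdown. In untreated embryos 2498 gene models rose (17.2%) and 2278 fell (15.7%). Of the 1847 rises of the knockdown, 1685 (91.2%) were also called in untreated embryos, which is 67.5% of the untreated rises. The falls shared 1616 gene models, 88.2% of the knockdown's and 70.9% of the untreated ones, and none was called in opposite directions. Across gene models the log2 fold changes of the courses had a correlation of 0.87, a description only, since genes of 1 library are not independent. A call in 1 course and not in the other is no test of a difference.

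That difference was tested for every gene model. The edgeR test of the interaction called 0 gene models, with a smallest adjusted p of 0.0114 and 611 at an unadjusted p under 0.05. Of these, 399 were below 0 and 212 above. A value below 0 is a lower log2 change in the knockdown, which can be a smaller rise or a larger fall. With the female as a block, 8 were called lower (0.0552% of those tested) and 1 higher (0.0069%), DESeq2 called 20 lower and 1 higher, and limma on log2(RPKM + 1) called 11 lower. Without the stage 2 knockdown library of female 1, edgeR called 3 lower. For gene models at 0 in all 4 stage 2 libraries of both courses the interaction could not be estimated.

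The gene called higher with the block was FGF8-like g5611 (difference 3.23 ± 0.41 without the block, edgeR adjusted p = 0.0114 without and 0.00106 with it). In 7 of the 8 called lower, the knockdown libraries stayed below 7 CPM at stage 3 whereas the untreated libraries rose, and in the eighth, the ubiquitin-conjugating enzyme E2Q-like gene g2279, they reached 8.67 and 4.85 CPM against 92.0 and 114 CPM. Holotricin-3-like g17950 had 0.43 and 3.50, then 2.09 and 6.21 CPM in the knockdown, and 0.504 and 1.31, then 252 and 151 CPM in untreated embryos (difference -6.77 ± 1.07, edgeR adjusted p = 0.0584 without and 0.00295 with the block). The uncharacterized g2114 had 0.323 and 1.498, then 0.199 and 0.757 CPM, against 85.1 and 152 CPM in untreated stage 3. Gamma-butyrobetaine dioxygenase g26914, which makes carnitine, had 0.538 and 1.62, then 0.299 and 0.151 CPM, and 25.1 and 33.1 CPM in untreated stage 3. Proclotting enzyme g17419 had 9.79 and 11.7, then 2.89 and 6.21 CPM in the knockdown (edgeR adjusted p = 0.03, not called) and rose in the reference, from 4.74 and 7.83 to 31.6 and 33.1 CPM. The other 3 were rhoGEF domain gene gxcJ-like g15443 and the uncharacterized g17014 and g8570, each at no more than 1.20 CPM at stage 3 of the knockdown.

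**Figure D5:**
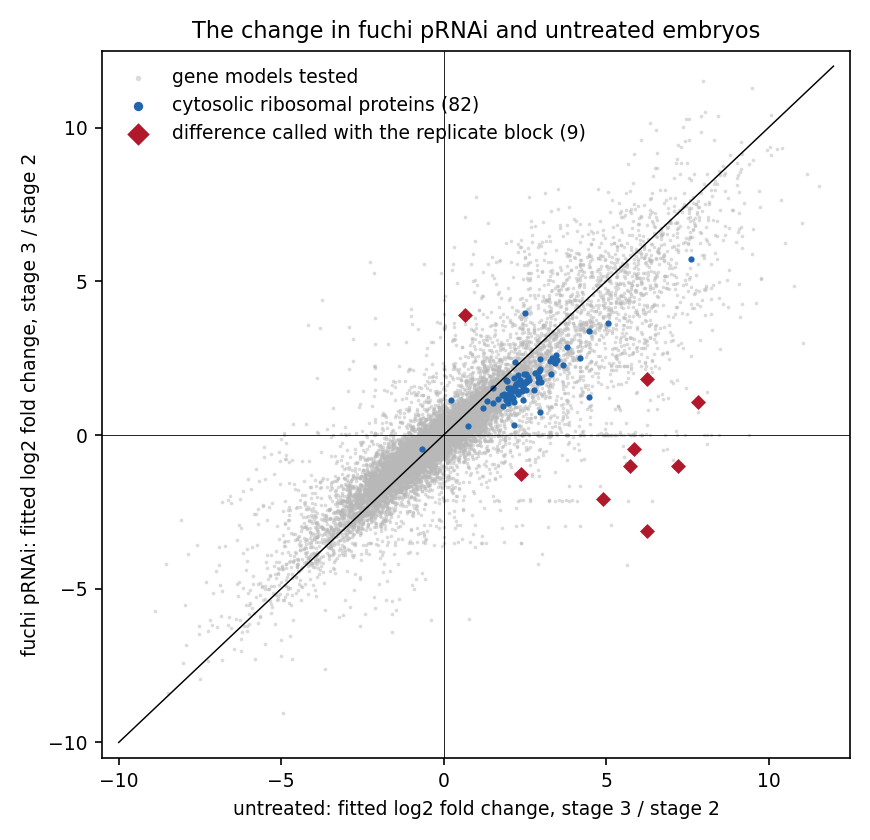
Fitted log2 fold change of stage 3 over stage 2 in *fuchi* pRNAi (vertical) against untreated embryos (horizontal), 1 point per gene model tested. Of the 82 cytosolic ribosomal protein genes (blue) 77 have the lower log2 change in the knockdown, and the 9 gene models called with the replicate block (red diamonds) lie far from the diagonal, 8 below and 1 above.

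A set of 10 genes, ranked first by the study's adjusted p for knockdown against untreated embryos at stage 3 in these same libraries, is not independent of the comparison. All 10 rose in untreated embryos (median log2 fold change 7.41), while in the knockdown 1 was called as a rise, g27086 (0.108 and 1.12 to 3.19 and 4.09 CPM, edgeR adjusted p = 0.00674). The median of the 10 in the knockdown was 2.46, or 0.63 with genes at 0 set to their bound. That single call was lost without the stage 2 library of female 1 or either stage 3 library.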

How the data were processed

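Strand-specific libraries of poly(A) RNA were sequenced single-end, per the labels and the methods of the study. For the deposited count table the authors counted reads with HTSeq 0.6.1p1 over the gene models that AUGUSTUS predicts on the assembly Ptep_1.0, with no normalisation. Sources used here name neither aligner nor strand setting, so reads of overlapping or antisense models cannot be told apart. The deposited RPKM table, also made by the authors, divides these counts by gene length and by a library total. Gene descriptions and scaffold positions came from the deposited tables, in which 18859 of 27990 gene models carry an NCBI gene, and some genes are split over several models.

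Counts were tested in R 4.3.3 with edgeR 4.0.16 (quasi-likelihood F test, TMM) in 1 fit of all 12 libraries and 6 groups, so that early stage 5 and untreated libraries also inform the spread. Gene models below 1 CPM in every library (13492) were left out, Benjamini-Hochberg adjustment ran over all 14498 tested, and an adjusted p under 0.01 was called. A ± behind a log2 fold change is its standard error. The knockdown libraries held 8031007 and 6737404 counts at stage 2 and 8857990 and 6229286 at stage 3 (females 1 and 2), where 3 counts are 0.339 to 0.482 CPM before scaling. Intervals and limits cover counting error only. The females of the labels (source names) pair the libraries across stages: deviations from the group mean correlated by 0.32 between stage 2 and stage 3 of the knockdown. Between these stages of untreated embryos they correlated by 0.27. The females also pair knockdown with untreated libraries, with correlations of 0.58 at stage 2 and 0.46 at stage 3. The block by female was therefore run as an alternative to the fit without it, with DESeq2 1.42.0, limma 3.58.1 on log2(RPKM + 1) and log2(RPKM + 0.1), other scalings, other filters, single libraries left out, the 4 knockdown libraries alone, and a test against a 2-fold change.

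Named genes were *fuchi*, *catA*, the members of the lists given by ID, up to 3 called rises and 3 called falls of smallest p in each list made from words in gene descriptions, the 12 described rises and 12 described falls of smallest p, the 6 rises and 4 falls of smallest p without a described product, the called differences between courses, and the 5 highest genes switched on or off. The members and lists were chosen with earlier results of these data known, and lists are given by counts and medians with no set test. The scripts were tested on simulated data.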

Additional observations from a re-analysis of the deposited data

How the results depend on the processing

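No gene model called both in the fit reported and in an alternative changed direction. The calls of the stage contrast stayed within 1.5 times under other scalings (RLE factors 1974 rises and 1720 falls, library totals 1626 and 1973), other filters (none 2248 and 2293, stricter 1887 and 1826), DESeq2 (2287 and 1978, with 1406 adjusted p not given) and limma (1456 and 2295 on log2(RPKM + 1), 1643 and 2042 on log2(RPKM + 0.1)). Rises made up 50.2% of calls in the fit reported and 38.8% with limma on log2(RPKM + 1). The 4 knockdown libraries alone gave 1257 rises and 1316 falls. Leaving out 1 knockdown library gave 972 to 1442 rises and 1149 to 1358 falls, and a test beyond 2-fold 771 and 835. The difference between courses, 0 called, became 5 higher and 28 lower with no filter on low counts, 1 and 20 with DESeq2, 11 lower with limma on log2(RPKM + 1), and 0 to 3 lower when 1 library of either course was left out. The cause of these differences was not tested. Gene models switched on and off numbered 109 and 8 at a minimum of 10 counts, and 22 and 1 at 50. Of 141 named genes called between the stages, 95 stayed called without each knockdown library in turn.

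With the replicate block (female as a term) the stage contrast gave 2299 rises (15.9% of those tested) and 2268 falls (15.6%), which kept 1845 of the rises and all 1832 falls, and in the 4 knockdown libraries alone 2383 and 2335. The difference between courses then gave 1 higher and 8 lower. Apart from the genes and lists named with the block above, it changed list counts by at most 2 in lists of under 5 calls. Some larger lists changed by more. Rises went from 68 to 74 for cytosolic ribosomal protein, 47 to 53 for splicing, 9 to 13 for proteasome and 6 to 9 for respiratory chain genes. Falls of factors that act on maternal RNA went from 8 to 11.

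Depth limits low genes most: at 3 counts a level below about 0.5 CPM was not detectable in a library, and genes at 0 in a stage have bounds in place of folds. With 2 females, the calls rest on the spread shared over all 6 groups.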
